A study of Mus musculus with 9 samples.

Results

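Apoptosis genes are 39 genes of the cell death machinery, chosen by name, of 17097 genes with at least 1 single-gene probe set on the arrays. They were measured by 83 probe sets, and 23 of the 39 had more than 1. The brightest probe set over the 9 arrays stood for a gene unless another is named. The arrays profiled RNA of the dissected substantia nigra of Swiss Webster mice, an outbred stock. Starting in adolescence, mice received once-daily intraperitoneal injections of saline, 1 mg/kg methylphenidate (MPH) or 10 mg/kg MPH for several months on a school-day schedule, and the tissue was taken after a drug-free week. MPH blocks the dopamine and norepinephrine transporters and is prescribed for attention deficit hyperactivity disorder. There were 3 arrays per group, all groups were injected, and no source used here says whether an array held 1 animal or several, so the p-values measure the spread between these arrays. Values are log2 intensities, so a difference is the logarithm of a ratio, and levels of different genes are not compared because probe sets differ in how strongly they bind.

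Cells die by apoptosis along an intrinsic and an extrinsic route. In the intrinsic route, BH3-only proteins neutralise the antiapoptotic BCL2 proteins and activate pore-forming relatives in the outer mitochondrial membrane, cytochrome c escapes, and APAF1 assembles the apoptosome that activates caspase-9. In the extrinsic route, death receptors of the tumour necrosis factor family recruit adaptor proteins that activate caspase-8, and inhibitor of apoptosis proteins and CARD-containing repressors hold both routes in check. Dopamine neurons of the substantia nigra are a textbook example of neurons that die in Parkinson's disease and after dopaminergic toxins. Most of this machinery is controlled by protein cleavage, location and binding, which an mRNA array does not measure.

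Some features of the arrays bear on all that follows. The dose labels are the submitters', and the entries that could be matched in the gene lists published with the study belonged to the arrays labelled with the other dose, so the groups are named here as their labels give them and a statement on 1 dose rests on those labels. Within a tolerance of 5e-04 on the log2 scale, 76 of 115 entries listed for 1 mg/kg equalled the difference from saline of the arrays labelled 10 mg/kg and 0 that of the arrays labelled 1 mg/kg, and 36 of 54 entries listed for 10 mg/kg equalled that of the arrays labelled 1 mg/kg and 0 that of the arrays labelled 10 mg/kg. The other entries matched neither. The arrays differed in marker genes of dopamine neurons and of other cell types, as the map of gene lists by array shows. Of 24 dopamine neuron markers, 22 had lower means at 1 mg/kg and 23 at 10 mg/kg than in saline, with median differences of -0.54 and -0.38. Their mean level was 7.32 to 7.44 in the 1 mg/kg arrays and 7.51 to 7.58 in the 10 mg/kg arrays, against 7.87 to 8.07 in saline arrays. Defining markers stayed far above background, as Th, the rate-limiting enzyme of dopamine synthesis, read 10.31 to 10.53 at 1 mg/kg and 10.45 to 10.63 at 10 mg/kg, against 10.99 to 11.18 in saline. In bulk tissue, fewer dopamine neurons, less RNA per neuron and a dissection that took less of their region cannot be told apart. Median levels of cortical and hippocampal neuron markers stood 1.33 above the saline mean in 10 mg/kg replicate 1 and between -0.19 and 0.13 in the other 8 arrays. Thalamic neuron markers were at 0.59 to 1.11 in the 1 mg/kg arrays and -0.29 to 0.61 in the 10 mg/kg arrays, against -0.77 in saline replicate 2 and 0.31 and 0.33 in the other saline arrays, with 4 of 6 higher at 1 mg/kg and a median difference of 0.95. All 4 serotonin neuron markers were lower in both MPH groups, with median differences of -1.43 and -1.09, and their array medians in saline spread over -0.95 to 0.80. At 10 mg/kg 11 of 11 microglia markers (median -0.23) and 8 of 9 oligodendrocyte markers (median -0.32) had lower means than saline, against 8 of 11 (median -0.07) and 6 of 9 (median -0.11) at 1 mg/kg. Xist, expressed from the inactive X chromosome of female cells, read 9.002 in 1 mg/kg replicate 2 and 2.99 to 4.62 elsewhere, and the Y-linked Eif2s3y read 4.11 there against 6.59 to 7.73. The 3' minus 5' difference of the Actb control probe sets, a measure of RNA integrity, was 1.03 to 1.19 in the MPH arrays and 0.88 to 0.93 in saline arrays. The same difference for the Gapdh control probe sets overlapped between the groups, at 0.22 to 0.41 in the MPH arrays and 0.23 to 0.39 in saline arrays. The part that tissue composition, RNA quality and these arrays played in the results was not tested beyond leaving each array out, and the arrays concerned are named where they decide a value. Arrays were left out of values that the authors had already adjusted for the replicate number. Any shift which that adjustment made in the remaining arrays therefore stays in those fits.

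**Figure D1:**
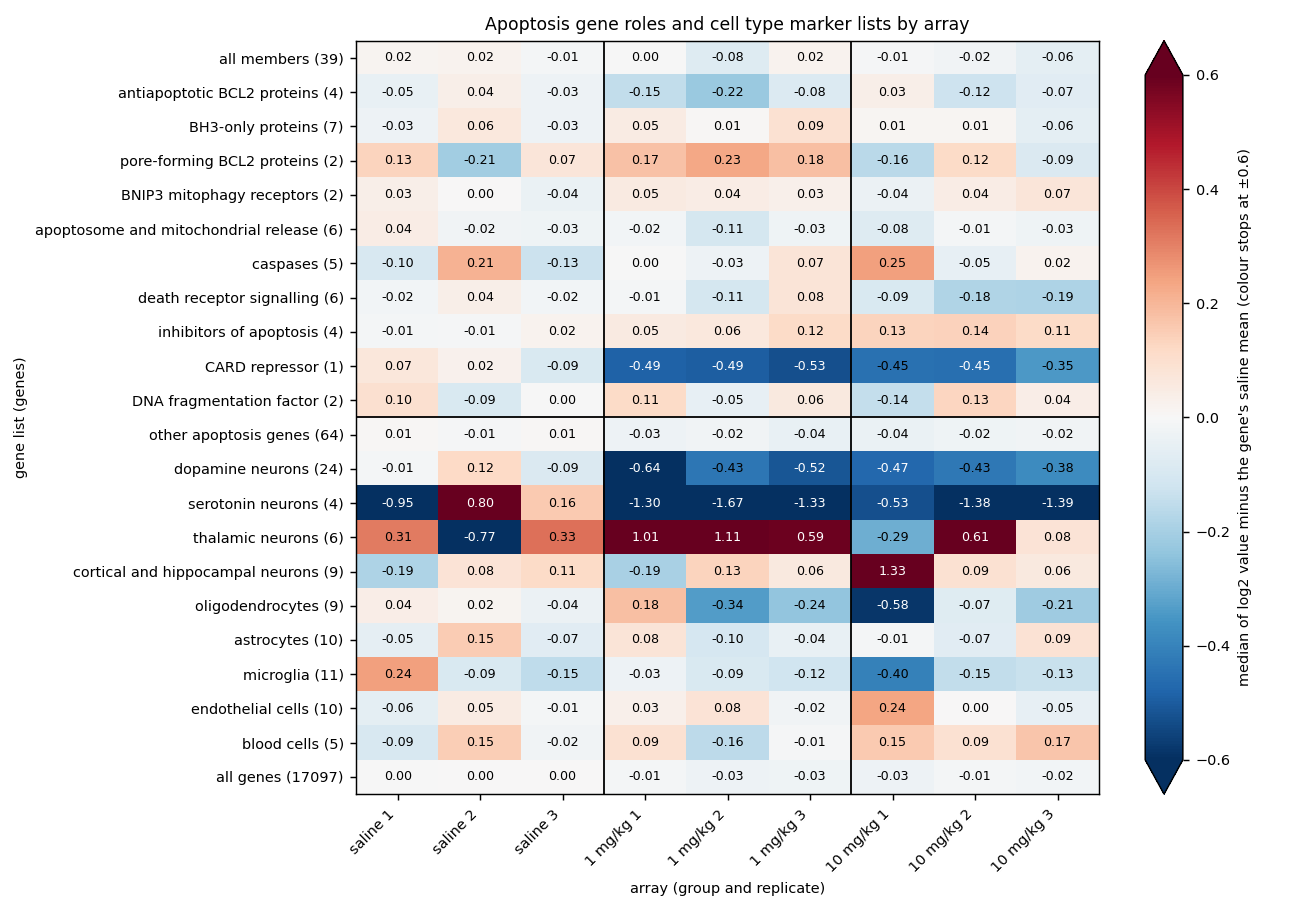
Median, over the genes of a list, of the log2 value minus the gene's own saline mean, for each of the 9 arrays (columns, by group and replicate) and each list (rows, with the number of genes); colour stops at ±0.6 and the value is printed in each cell. The row of the CARD repressor, Nol3 alone, lies between -0.53 and -0.35 in the 6 MPH arrays, and the row of all 39 members stays between -0.08 and 0.02.

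Across the 39 genes, MPH groups and saline differed little. The median difference from saline was 0.00 (unrounded 0.00273) at 1 mg/kg and -0.02 at 10 mg/kg, against -0.02 and -0.02 over all 17097 genes. At 1 mg/kg 20 members were higher and 19 lower, and at 10 mg/kg 19 were higher and 20 lower. Both comparisons use the same saline arrays, so their values are given side by side and not counted as separate evidence. With the replicate number as a block in limma, 0 of the 39 passed an adjusted p of 0.05 in either comparison with saline, and 0 of 45037 probe sets did (0% in each comparison). The authors had already adjusted the deposited values for the replicates. With the block, the fit adjusts for them again and leaves fewer degrees of freedom. The fit without the block does not count the degrees of freedom that the authors' adjustment used, so its p-values can be too small. Without the block, 1 of the 39, Nol3, passed in both, on the lower side. Of all probe sets, 54 (0.12%, with 0.0844% lower) were called without the block at 1 mg/kg. At 10 mg/kg 115 were (0.255%, with 0.153% lower). These counts equal the lengths of the study's lists for the other dose.

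At an unadjusted p of 0.05, 8 members stood out at 1 mg/kg. Bcl2l11, Bok and Birc3 were higher, 3 of 39 against 3.32% of all genes, and Bcl2l2, Bid, Bbc3, Tradd and Nol3 were lower, 5 of 39 against 7.4% of all genes. At 10 mg/kg Birc2 and Birc3 were higher, 2 of 39 against 3.28%, and Tradd and Nol3 were lower, 2 of 39 against 6.95%. The 3 arrays of a group lay wholly above those of saline for 6 members at 1 mg/kg (8.97% of all genes) and for 3 at 10 mg/kg (8.75%), and wholly below for 8 (15.3%) and 8 (15.8%). As shares of the 39, the members at that p were 7.69% higher and 12.8% lower at 1 mg/kg and 5.13% each way at 10 mg/kg, and these shares were not tested against those of all genes. The count at 1 mg/kg rested on single arrays. Without 1 mg/kg replicate 2, the array with high Xist, 2 members were at that p, Tradd and Nol3, and without saline replicate 1, saline replicate 2 or 1 mg/kg replicate 1 there were 5 each. Bcl2l11 and Bok were highest in 1 mg/kg replicate 2 and lowest in saline replicate 2, and Bid and Bbc3 the reverse. Bcl2l2, Birc3, Tradd and Nol3 did not have both extremes in this pair of arrays. Without the block 9 members were at that p at 1 mg/kg and 10 at 10 mg/kg.

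**Figure D2:**
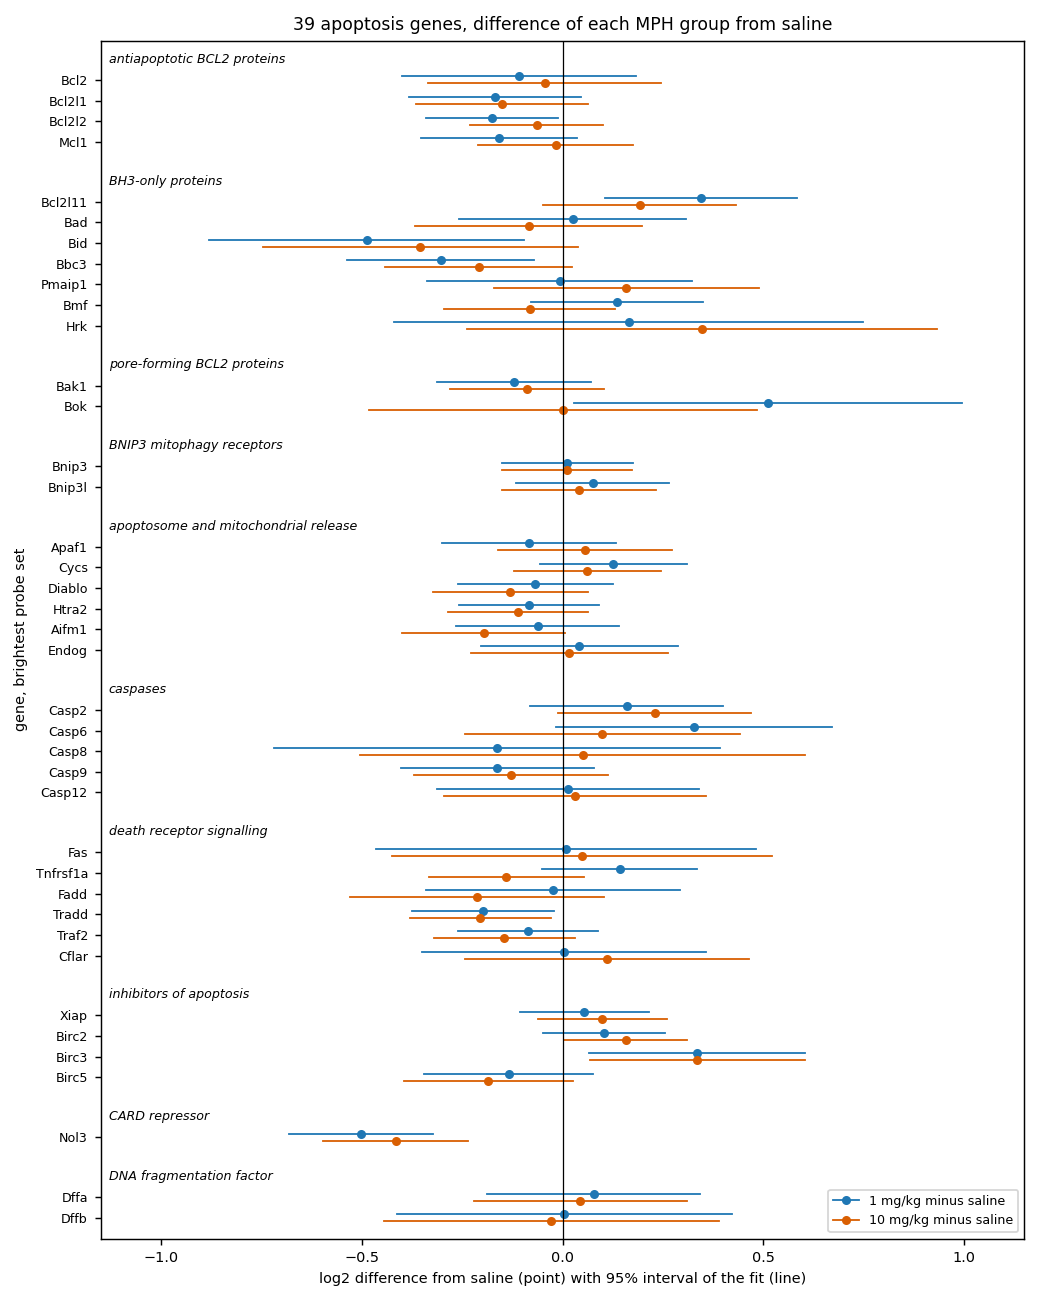
Log2 difference from saline (horizontal axis) of the 39 genes, grouped by role, for arrays labelled 1 mg/kg (blue) and 10 mg/kg (orange); points are fitted differences and lines their 95% intervals from limma with the replicate block. Nol3, at -0.50 and -0.42, and Birc3, at 0.33 and 0.34, have intervals that leave out 0 at both doses, as does Tradd at -0.20 and -0.20.

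Nol3 had the smallest p of the members in both comparisons with saline. It encodes ARC, a CARD-containing repressor that binds caspase-8 and BCL2 family proteins and is abundant in muscle and brain. The gene lies at chr8:105276145-105281939 (GRCm38.p6). Saline arrays read 7.65, 7.61 and 7.49, arrays labelled 1 mg/kg 7.10, 7.09 and 7.06, and arrays labelled 10 mg/kg 7.14, 7.13 and 7.24. All 6 MPH arrays lay below all 3 saline arrays, with a gap wider than the range within either MPH group, and the 10 mg/kg arrays all lay above the 1 mg/kg arrays.

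The difference of Nol3 from saline was -0.50 ± 0.077 (SE) at 1 mg/kg, a ratio of 0.706, and -0.42 ± 0.077 at 10 mg/kg, a ratio of 0.75. The unadjusted p was 0.000245 and 0.000805, and the limma adjusted p was 0.378 and 0.351 with the block and 0.0369 and 0.0415 without it. An exact two-sided permutation test gave 0.1 for each, the smallest p that 3 arrays against 3 allow. With each of the 9 arrays left out in turn, the unadjusted p stayed at or below 0.00205 at 1 mg/kg and 0.00582 at 10 mg/kg. The difference between the doses was 0.09, with a 95% interval of -0.09 to 0.27. Nol3 is among the genes the study listed from these same arrays, so its choice is not independent of them. Dopamine and serotonin neuron markers were lower in the same MPH groups, and at 10 mg/kg so were those of microglia and oligodendrocytes, and the part of these cell types in the Nol3 values was not tested.

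The other 2 probe sets of Nol3 were unequal. Probe set 1444786_PM_at read 5.76, 5.76 and 5.49 in saline, 5.07, 5.10 and 4.90 at 1 mg/kg and 5.26, 5.13 and 5.45 at 10 mg/kg. Every MPH array was again below every saline array, with differences of -0.65 at 1 mg/kg (unadjusted p = 0.000803) and -0.39 at 10 mg/kg (unadjusted p = 0.0122). Probe set 1435024_PM_at read 6.12, 5.97 and 5.81 in saline, 5.83, 5.75 and 6.06 at 1 mg/kg and 5.76, 6.01 and 5.97 at 10 mg/kg, groups that overlap, with differences of -0.08 and -0.05. No adjusted p of these 2 probe sets reached 0.05 with the block, and without it the smallest was 0.0586.

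**Figure D3:**
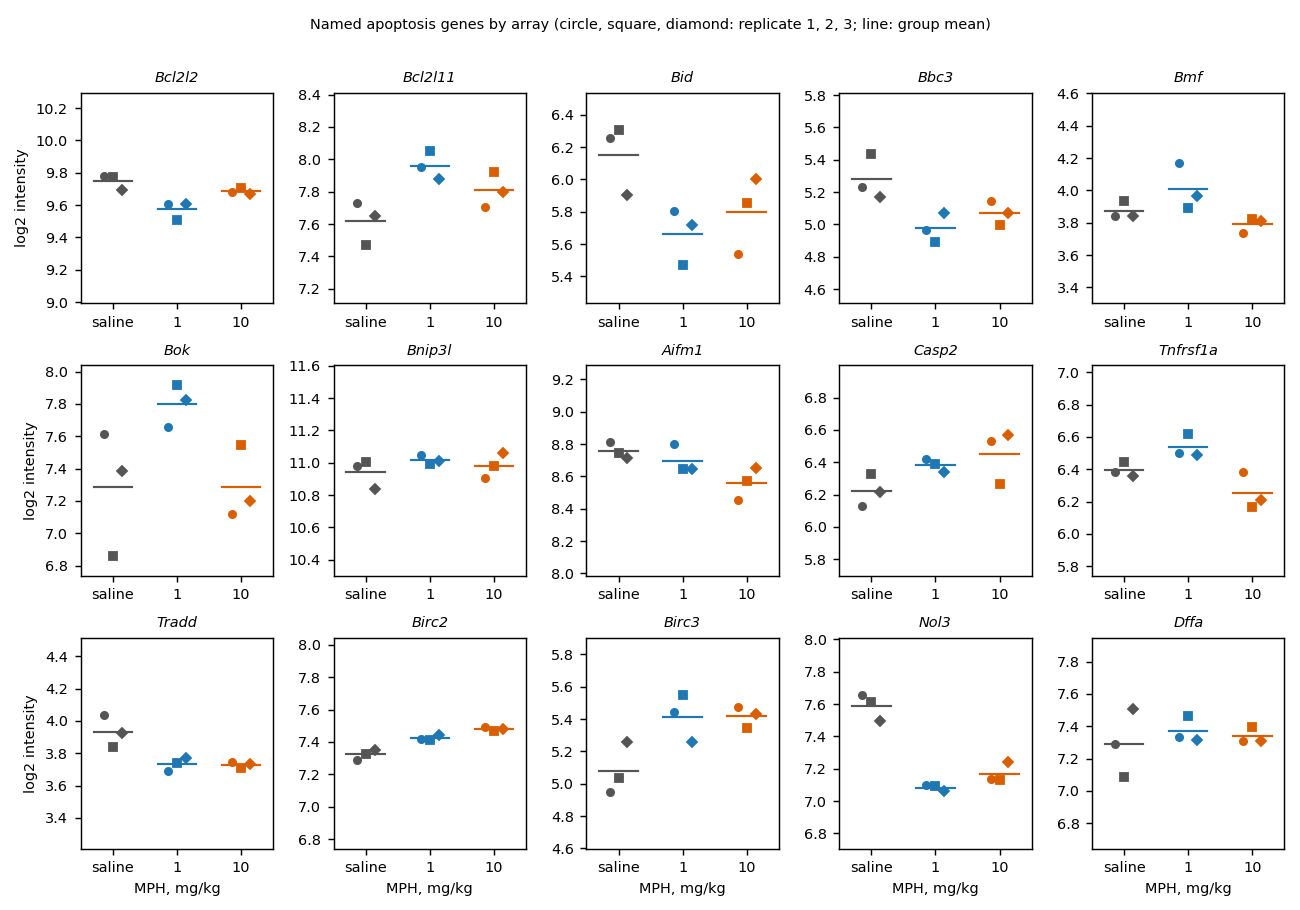
Log2 intensity (vertical axis, every panel spanning the same width) of 15 members by group (saline, 1 mg/kg, 10 mg/kg); circles, squares and diamonds are replicates 1, 2 and 3 and lines are group means. The MPH arrays of Nol3 lie at 7.06 to 7.24 and its saline arrays at 7.49 to 7.65, while Bok and Bid spread widely within groups.

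The antiapoptotic BCL2 proteins keep the outer mitochondrial membrane sealed by sequestering their killer relatives. All 4 genes, Bcl2, Bcl2l1 (BCL-XL), Bcl2l2 (BCL-W) and Mcl1, had differences below 0 in both comparisons, with medians of -0.16 at 1 mg/kg and -0.05 at 10 mg/kg, and 0 of 4 passed an adjusted p of 0.05. Bcl2l2, which is prominent in mature neurons, read 9.78, 9.77 and 9.69 in saline, 9.60, 9.51 and 9.61 at 1 mg/kg and 9.68, 9.70 and 9.67 at 10 mg/kg. The 1 mg/kg arrays were all below the saline arrays, and the 10 mg/kg arrays overlapped with saline. Its difference was -0.18 ± 0.071 at 1 mg/kg (unadjusted p = 0.0403, adjusted 0.468) and -0.06 at 10 mg/kg. Without 1 mg/kg replicate 2 that p was 0.156. Mcl1 and Bcl2l1 were at -0.16 and -0.17 at 1 mg/kg, with arrays wholly below saline for both, and at -0.02 and -0.15 at 10 mg/kg. Bcl2, at -0.11 and -0.04, overlapped with saline in both.

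Some dimmer probe sets of these genes had the sign of the brightest and some the opposite sign. At 1 mg/kg 3 of the 4 Bcl2l2 probe sets were below 0, and the second Mcl1 probe set was at -0.03 and -0.02, on the same side as the brightest. A second Bcl2l2 probe set, 1430453_PM_a_at, read 5.04, 5.16 and 5.04 in saline, 5.24, 5.10 and 5.10 at 1 mg/kg and 5.28, 5.52 and 5.47 at 10 mg/kg. Here the 10 mg/kg arrays were above all others, by 0.34 relative to saline (unadjusted p = 0.00607, adjusted 0.424). The mean over the 4 Bcl2l2 probe sets was 0.14 above saline at 10 mg/kg, the sign opposite to that of the brightest. The next 2 probe sets of Bcl2l1 were at 0.12 and 0.17 at 1 mg/kg, where the brightest was at -0.17. The second Bcl2 probe set, at 0.05 at 1 mg/kg and 0.08 at 10 mg/kg, also had the opposite sign to the brightest.

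BH3-only proteins are the sensors that start the intrinsic route. Of the 7 genes, Bcl2l11 was higher and Bid and Bbc3 lower at an unadjusted p of 0.05 at 1 mg/kg, 0 reached that p at 10 mg/kg, and 0 passed an adjusted p of 0.05 in either. The promoters of Bcl2l11 and Bbc3, a pair with opposite signs, are shown from the RefSeq table of GRCm38.p6 (250 bases before and 50 after the annotated start), since both genes are textbook targets of stress-responsive transcription factors, FOXO factors for Bcl2l11 and p53 for Bbc3. Capitals mark the FOXO core GTAAACA in Bcl2l11 and the GC box GGGCGG, on either strand, in Bbc3, and the 3 GC boxes of the Bcl2l11 promoter are left in lower case.
Bcl2l11, chr2:128125788-128126087, plus strand: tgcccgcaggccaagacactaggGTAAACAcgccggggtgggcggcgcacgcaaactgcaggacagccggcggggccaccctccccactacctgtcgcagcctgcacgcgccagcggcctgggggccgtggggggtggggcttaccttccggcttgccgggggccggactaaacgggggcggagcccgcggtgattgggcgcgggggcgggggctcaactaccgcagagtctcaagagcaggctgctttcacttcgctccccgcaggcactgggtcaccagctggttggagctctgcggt
Bbc3, chr7:16309333-16309632, plus strand: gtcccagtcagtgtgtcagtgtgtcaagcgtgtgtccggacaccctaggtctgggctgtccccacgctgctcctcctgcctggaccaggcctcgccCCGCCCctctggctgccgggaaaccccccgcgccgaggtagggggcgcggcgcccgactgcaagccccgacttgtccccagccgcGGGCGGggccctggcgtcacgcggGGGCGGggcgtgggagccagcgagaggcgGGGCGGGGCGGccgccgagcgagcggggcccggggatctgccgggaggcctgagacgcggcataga

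The table held promoters of 34 of the 39 members, and Nol3, Tradd, Htra2, Bnip3l and Pmaip1 had no entry. Only the first entry of a gene was searched, and 7 members had several. The 6 motifs searched on both strands were the FOXO core GTAAACA, the GC box GGGCGG, the cyclic AMP response element TGACGTCA, the AP-1 site TGANTCA, the NF-kB site and the p53 half-site. The FOXO core occurred once in the Bcl2l11 promoter, 227 bases before the start. It was in 1 of 34 member promoters (2.94%) against 3.55% of 27025 promoters, 1 per gene. The Bbc3 promoter held 5 GC boxes and 2 overlapping matches to the NF-kB site, none shared with another motif, and no p53 half-site within this window. That window lies inside the annotated span of Bbc3, chr7:16308398-16318334. The sequence at the 5' end of the span was not searched. GC boxes were in 24 of 34 member promoters (70.6%) against 35.9% of all. The NF-kB site was in 6 (17.6% against 8.18%), the p53 half-site in 2 (5.88% against 8.37%) and the AP-1 site in 1 (2.94% against 7.93%). These matches describe the letters only.

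Bcl2l11 encodes BIM, which can bind every antiapoptotic BCL2 protein. It read 7.73, 7.47 and 7.65 in saline, 7.95, 8.05 and 7.88 at 1 mg/kg and 7.70, 7.92 and 7.80 at 10 mg/kg. All 1 mg/kg arrays were above all saline arrays, and 10 mg/kg replicate 1 lay within the saline range. The difference was 0.34 ± 0.10 at 1 mg/kg (ratio 1.27, unadjusted p = 0.011, adjusted 0.416 with and 0.105 without the block) and 0.19 ± 0.10 at 10 mg/kg (unadjusted p = 0.101). All 5 Bcl2l11 probe sets were above 0 at 1 mg/kg and 4 of 5 at 10 mg/kg. The largest, 1435449_PM_at, read 4.25, 4.35 and 4.20 in saline, 4.69, 4.82 and 4.96 at 1 mg/kg and 4.68, 4.47 and 4.39 at 10 mg/kg, and in it all 6 MPH arrays exceeded the saline arrays (differences 0.56 and 0.25, unadjusted p = 0.00121 and 0.0563).

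Bbc3 encodes PUMA, which binds all antiapoptotic BCL2 proteins and is induced by p53. It read 5.23, 5.44 and 5.17 in saline, 4.97, 4.89 and 5.07 at 1 mg/kg and 5.14, 5.00 and 5.07 at 10 mg/kg. Every MPH array was below every saline array, though 10 mg/kg replicate 1 lay just under saline replicate 3. The difference was -0.30 ± 0.10 at 1 mg/kg (ratio 0.81, unadjusted p = 0.0174, adjusted 0.42) and -0.21 ± 0.10 at 10 mg/kg (unadjusted p = 0.0729).

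Bid encodes the protein that caspase-8 cleaves to link the extrinsic to the intrinsic route. It read 6.25, 6.30 and 5.90 in saline, 5.81, 5.47 and 5.72 at 1 mg/kg and 5.54, 5.85 and 6.005 at 10 mg/kg. The 1 mg/kg arrays were all below saline, while 10 mg/kg replicate 3 exceeded saline replicate 3. The difference was -0.49 ± 0.17 at 1 mg/kg (unadjusted p = 0.0214, adjusted 0.433) and -0.35 ± 0.17 at 10 mg/kg (unadjusted p = 0.0709). The mean over the 3 Bid probe sets was smaller, at -0.20 and -0.12. Without 1 mg/kg replicate 2, the unadjusted p at 1 mg/kg was 0.105 for Bid, 0.0805 for Bbc3 and 0.0523 for Bcl2l11, with differences of -0.34, -0.24 and 0.29.

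Bmf, a BH3-only protein released from the cytoskeleton when cells detach, read 3.84, 3.93 and 3.84 in saline, 4.17, 3.89 and 3.96 at 1 mg/kg and 3.74, 3.82 and 3.81 at 10 mg/kg. These values lie not far above the level of 3.59 that marked the 95th percentile of the nonspecific control probe sets. The 10 mg/kg arrays were all below both other groups, and the difference between 10 mg/kg and 1 mg/kg was -0.22 ± 0.091 (unadjusted p = 0.0464, adjusted 0.774). Its other 2 probe sets, both near background, were at -0.14 and 0.07 in that comparison. Bad, Pmaip1 (NOXA) and Hrk had differences between -0.08 and 0.35 in the comparisons with saline. Hrk, an activator of neuronal death on growth factor withdrawal, was highest in 10 mg/kg replicate 1, at 4.94, where cortical and hippocampal markers were also highest, against 3.81 to 4.43 in the other 8 arrays.

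Pore-forming BCL2 proteins permeabilise the outer mitochondrial membrane. Bok, whose protein can act without BAX and BAK1, had the largest positive difference of the 39 at 1 mg/kg. It read 7.62, 6.86 and 7.38 in saline, 7.66, 7.92 and 7.82 at 1 mg/kg and 7.12, 7.54 and 7.20 at 10 mg/kg. All 1 mg/kg arrays were above saline, the nearest of them, replicate 1, just above saline replicate 1, and the 10 mg/kg arrays lay within the saline range. The difference from saline was 0.51 ± 0.21 at 1 mg/kg (ratio 1.43, unadjusted p = 0.0403, adjusted 0.468) and 0.00 at 10 mg/kg, and 10 mg/kg minus 1 mg/kg was -0.51 ± 0.21 (unadjusted p = 0.0405, adjusted 0.774). Saline replicate 2 was the lowest of all 9 arrays for Bok. Without it the difference was 0.21 at 1 mg/kg and -0.31 at 10 mg/kg. That array was also lowest in thalamic neuron markers, which ran with Bok between the groups too, with median differences of 0.95 at 1 mg/kg, 0.00 at 10 mg/kg and -0.80 for 10 mg/kg minus 1 mg/kg, and their part in the Bok values was not tested. Bak1 was at -0.12 and -0.09, with overlapping groups. Its second probe set, near background, had the opposite sign, at 0.15 and 0.15, and lay wholly above saline in both MPH groups.

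Bnip3 and Bnip3l (NIX) encode outer membrane proteins that mark mitochondria for removal by autophagy. Bnip3l read 10.98, 11.00 and 10.84 in saline, 11.05, 10.99 and 11.01 at 1 mg/kg and 10.90, 10.98 and 11.06 at 10 mg/kg, groups that overlapped. Its differences were 0.07, with a 95% interval of -0.12 to 0.27, and 0.04, with an interval of -0.15 to 0.23. Its other 2 probe sets had the opposite sign, at -0.12 and -0.08 at 1 mg/kg. Bnip3 lay at 0.01 in both, with 95% intervals of -0.15 to 0.17 and -0.15 to 0.17, and spread over 10.98 to 11.08 across all 9 arrays.

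Proteins released from mitochondria and the apoptosome scaffold follow pore formation. The 6 genes Apaf1, Cycs (cytochrome c), Diablo, Htra2, Aifm1 and Endog had medians of -0.06 at 1 mg/kg and -0.05 at 10 mg/kg, and 0 reached an unadjusted p of 0.05. Aifm1, the mitochondrial flavoprotein that is released to the nucleus in caspase-independent death, read 8.82, 8.75 and 8.71 in saline, 8.80, 8.65 and 8.65 at 1 mg/kg and 8.46, 8.57 and 8.65 at 10 mg/kg. The 10 mg/kg arrays were all below saline and replicate 1 was the lowest. The difference was -0.06 at 1 mg/kg and -0.20 ± 0.087 at 10 mg/kg (unadjusted p = 0.056, adjusted 0.528), and -0.10 without 10 mg/kg replicate 1. Aifm1 is X-linked, and its 1 mg/kg value was -0.04 without the array with high Xist. Diablo, which frees caspases from their inhibitors, was at -0.07 and -0.13, and wholly below saline at 10 mg/kg. Its second, dimmer probe set, 1425768_PM_at, had the opposite sign, at 0.24 (unadjusted p = 0.0316, adjusted 0.452) and 0.15 (unadjusted p = 0.153), and lay wholly above saline in both MPH groups. Cycs was at 0.13 and 0.06, and wholly above saline at 1 mg/kg. A dim second probe set of Apaf1, 1450223_PM_at, near background, was 0.38 higher at 10 mg/kg (unadjusted p = 0.00439, adjusted 0.424), while the brightest was at 0.06.

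Caspases carry out the cleavage. Of the 5 measured here, 0 reached an unadjusted p of 0.05. Casp2, a nuclear initiator caspase, read 6.13, 6.32 and 6.22 in saline, 6.42, 6.39 and 6.34 at 1 mg/kg and 6.53, 6.26 and 6.57 at 10 mg/kg. All 1 mg/kg arrays were above saline, and 10 mg/kg replicate 2 fell within the saline range. The differences were 0.16 ± 0.10 (unadjusted p = 0.161) and 0.23 ± 0.10 (unadjusted p = 0.0584), and the second was 0.35 without 10 mg/kg replicate 2. Casp6, an executioner caspase active in axons, was at 0.33 at 1 mg/kg (unadjusted p = 0.0587) and 0.10 at 10 mg/kg. Casp9, the apoptosome caspase, was at -0.16 and -0.13. Casp8, the death receptor caspase, was at -0.16 and 0.05 with wide intervals, the first reaching -0.72 to 0.39, and Casp12 was at 0.01 and 0.03.

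Death receptor signalling starts at Fas and Tnfrsf1a (TNF receptor 1) and runs through the adaptors FADD, TRADD and TRAF2, with CFLAR as a brake on caspase-8. Tradd, which docks on TNF receptor 1, read 4.03, 3.84 and 3.92 in saline, 3.69, 3.74 and 3.77 at 1 mg/kg and 3.74, 3.71 and 3.73 at 10 mg/kg. All 6 MPH arrays were below the saline arrays, and all 9 lay low, between 3.69 and 4.03, above the background mark of 3.59. The differences were -0.20 ± 0.076 (unadjusted p = 0.0323, adjusted 0.454) and -0.20 ± 0.076 (unadjusted p = 0.0283, adjusted 0.484), with 0.148 and 0.149 adjusted without the block. A second Tradd probe set, near background, was at 0.13 and -0.07. Tradd lies at chr8:105258575-105264594, shortly before Nol3 at chr8:105276145-105281939. For both genes no MPH array reached the lowest saline array, and whether these close genes vary independently was not tested.

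Tnfrsf1a read 6.38, 6.44 and 6.36 in saline, 6.50, 6.62 and 6.49 at 1 mg/kg and 6.38, 6.17 and 6.21 at 10 mg/kg. The 1 mg/kg arrays were all above saline, and 2 of the 10 mg/kg arrays were below it. From saline it differed by 0.14 and -0.14, neither at an unadjusted p of 0.05. In 10 mg/kg against 1 mg/kg it differed by -0.28 ± 0.083 (ratio 0.823, unadjusted p = 0.0105, adjusted 0.774), the smallest p of the 39 in that comparison. Of the whole comparison of the doses, 0 members and 0 of 45037 probe sets passed an adjusted p of 0.05 with or without the block (0% and 0%). At an unadjusted p of 0.05, 0 members were higher (2.84% of all genes) and 3 were lower, Tnfrsf1a, Bok and Bmf (2.98% of all genes). Groups did not overlap for 3 higher (8.9%) and 3 lower members (8.67%), and the median difference between the doses was 0.00, as over all genes. Without 1 mg/kg replicate 2 the 1 member at that p was Bmf, and without saline replicate 3 or 10 mg/kg replicate 3 it was Tnfrsf1a.

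Fadd and Traf2 were lower without reaching an unadjusted p of 0.05, at -0.02 and -0.21 and at -0.09 and -0.14, and Traf2 lay wholly below saline in both MPH groups. Fas was at 0.01 and 0.05 and, like Hrk, was highest in 10 mg/kg replicate 1, at 4.46 against 3.74 to 4.13 elsewhere. The brightest Cflar probe set was at 0.00 and 0.11. Another, 1425686_PM_at, read 4.68, 4.80 and 4.62 in saline, 4.99, 5.35 and 5.07 at 1 mg/kg and 5.61, 5.02 and 5.16 at 10 mg/kg, so that all 6 MPH arrays exceeded the saline arrays. Its differences were 0.43 ± 0.16 (unadjusted p = 0.0281) and 0.56 ± 0.16 (unadjusted p = 0.00875), with adjusted p of 0.445 and 0.424. Of the 5 Cflar probe sets, 4 were above 0 in both comparisons.

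**Figure D4:**
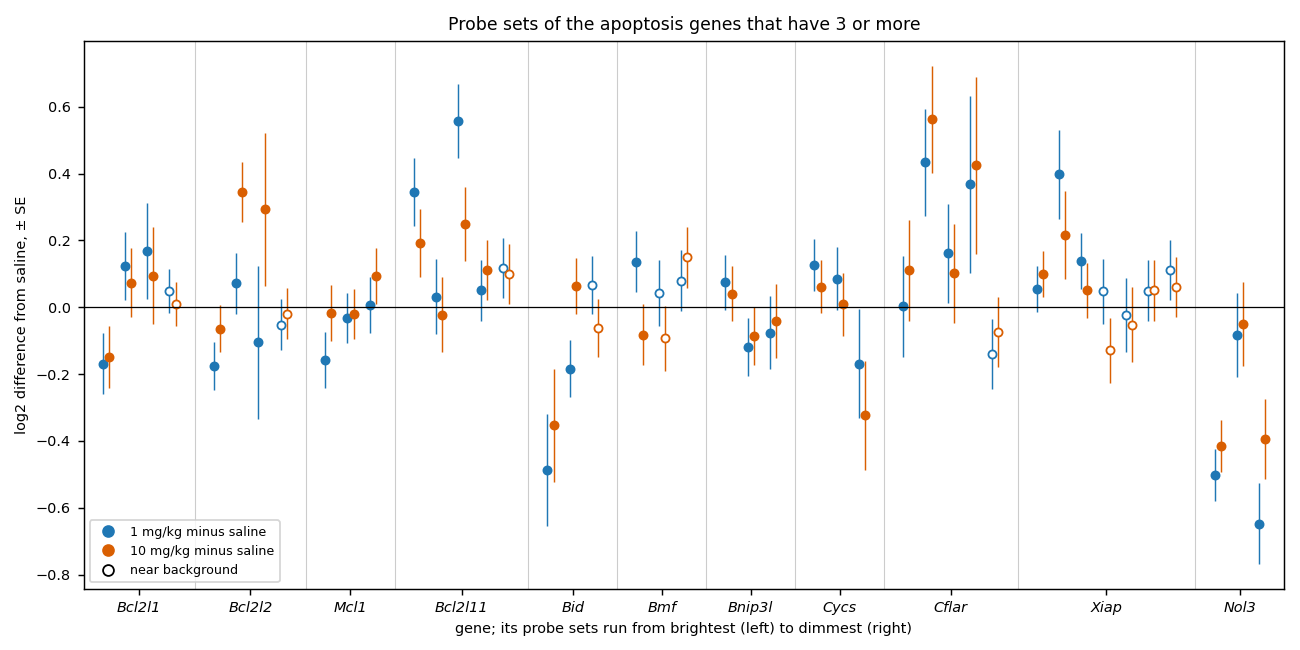
Log2 difference from saline ± SE (vertical axis) of every probe set of the 11 members with 3 or more, at 1 mg/kg (blue) and 10 mg/kg (orange); within a gene, probe sets run from brightest to dimmest, and open circles are near background. All 3 Nol3 probe sets are below 0, at -0.65 to -0.05. Taken over both doses, those of each other gene shown fall on both sides of 0.

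Inhibitor of apoptosis proteins bind caspases or ubiquitinate signalling proteins of the death receptors. Birc2 and Birc3 (cIAP1 and cIAP2), both ubiquitin ligases of the TNF receptor pathway, lie next to each other on chromosome 9 and had the same sign. Their promoters are shown because these neighbours differed from saline in the same direction. Capitals in Birc2 mark the cyclic AMP response element TGACGTCA, 35 bases before the start, and the Birc3 promoter held none of the 6 motifs.
Birc2, chr9:7837008-7837307, minus strand: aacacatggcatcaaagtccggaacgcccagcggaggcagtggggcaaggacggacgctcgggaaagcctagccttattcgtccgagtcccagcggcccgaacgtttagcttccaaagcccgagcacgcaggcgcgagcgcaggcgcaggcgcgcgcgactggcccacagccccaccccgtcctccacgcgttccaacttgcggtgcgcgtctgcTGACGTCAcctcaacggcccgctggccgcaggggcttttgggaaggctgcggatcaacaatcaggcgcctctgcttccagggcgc
Birc3, chr9:7873121-7873420, minus strand: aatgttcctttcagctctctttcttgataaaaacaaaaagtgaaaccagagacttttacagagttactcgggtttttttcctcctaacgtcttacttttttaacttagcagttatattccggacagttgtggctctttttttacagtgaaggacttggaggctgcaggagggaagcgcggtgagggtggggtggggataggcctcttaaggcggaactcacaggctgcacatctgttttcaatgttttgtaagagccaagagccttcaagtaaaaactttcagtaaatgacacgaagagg
The element was in 2 of 34 member promoters, those of Birc2 and Cycs (5.88%), against 1.88% of all promoters searched.

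Birc3 read 4.95, 5.03 and 5.26 in saline, 5.44, 5.55 and 5.26 at 1 mg/kg and 5.48, 5.34 and 5.43 at 10 mg/kg. The 10 mg/kg arrays were all above saline, and the lowest 1 mg/kg array and the highest saline array both read 5.26. The differences were 0.33 ± 0.12 (ratio 1.26, unadjusted p = 0.0209, adjusted 0.432) and 0.34 ± 0.12 (ratio 1.26, unadjusted p = 0.0208, adjusted 0.463), and without the block the adjusted p was 0.135 and 0.145. With arrays left out in turn, the unadjusted p stayed at or below 0.05 in 5 of 9 at each dose and reached 0.101 at each. Its second probe set, near background, was at 0.08 and 0.07.

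Birc2 varied least within groups of all 39 members and read 7.29, 7.33 and 7.35 in saline, 7.42, 7.41 and 7.44 at 1 mg/kg and 7.49, 7.47 and 7.48 at 10 mg/kg. The 3 groups did not overlap, with saline lowest and 10 mg/kg highest. The differences were small, 0.10 ± 0.065 at 1 mg/kg (unadjusted p = 0.158) and 0.16 ± 0.065 at 10 mg/kg (ratio 1.11, unadjusted p = 0.0447, adjusted 0.516). Between the doses it differed by 0.05, with a 95% interval of -0.10 to 0.21. In each of the 9 fits with an array left out, its unadjusted p was above 0.05 in both comparisons with saline.

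Xiap, an X-linked gene whose protein inhibits caspases directly, was at 0.05 and 0.10, and its 10 mg/kg arrays were all above saline. A second probe set, 1456088_PM_at, was 0.40 higher at 1 mg/kg (unadjusted p = 0.0185, adjusted 0.425), with its highest value, 5.95, in the array with high Xist. Birc5 (survivin), a gene of dividing cells, was near background in these arrays and lay at -0.13 and -0.18.

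The DNA fragmentation factor, a nuclease and its inhibitor, acts last. Dffa, the inhibitor, read 7.29, 7.08 and 7.50 in saline, 7.33, 7.46 and 7.32 at 1 mg/kg and 7.31, 7.40 and 7.31 at 10 mg/kg, and saline arrays held both the lowest and the highest value. Its differences of 0.08 and 0.04 had 95% intervals of -0.19 to 0.34 and -0.22 to 0.31. Dffb, the nuclease, was at 0.00 and -0.03.

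Variation within groups differed among the members. The median within-group SD was 0.105 over the 39 and 0.0971 over all genes, and Hrk, Casp8, Bok and Fas had the widest spread. Beside the members, 64 other apoptosis genes had median differences of -0.03 at 1 mg/kg and -0.03 at 10 mg/kg. At an unadjusted p of 0.05, 0 of 64 were higher and 4 lower at 1 mg/kg (3.32% and 7.4% of all genes), led by Cidea at -0.67, Ppif at -0.31 and Aven at -0.35. At 10 mg/kg 2 were higher, Casp8ap2 at 0.26 (unadjusted p = 0.0102) and Bcl2l14 at 0.16, and 4 lower, with Traf5 at -0.47 and Xaf1 at -0.55 (3.28% and 6.95% of all genes). Bcl2l14 is among the 13 of these 64 genes near background. With the block 0 of 64 passed an adjusted p of 0.05 in either, and without it 1 did, Traf5 at 10 mg/kg, at 0.0453.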

How the data were processed

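RNA of the substantia nigra was hybridised to Affymetrix HT MG-430 PM arrays, 3 per group. The deposited values are log2 intensities per probe set, which the authors made with RMA and then adjusted with ComBat for a batch effect of the 3 replicates. Of 45141 rows, 104 control probe sets were left out. Probe sets were named from the platform annotation, where 28898 had 1 gene symbol, 551 had several and 15588 had none, and the brightest single-gene probe set stood for a gene. The fit used limma 3.58.1 (R 4.3.3) on all 45037 remaining probe sets, with terms for the 3 groups and a block for the replicate number, and p-values were adjusted by Benjamini-Hochberg over all of them. Intervals cover 95%. The block follows the batch stated in the study's methods, for which the deposited values were already adjusted. Deviations from the group means correlated below 0 between arrays that share a number (-0.63 to -0.13 over 9 pairs). The median SD of the replicate-number means was 0.0184, against 0.0568 expected from the residual spread. Without the block, the degrees of freedom used by the authors' adjustment are not counted. Near background means a mean at or below 3.59, the 95th percentile of 23 nonspecific control probe sets. Per-array values are given for members called in any fit, members at an unadjusted p of 0.05 in any comparison, and the member of each role list with the smallest p. The members and lists were chosen with earlier results of these data known. The limma fit was tested on simulated data. The number of arrays limits the precision.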

Additional observations from a re-analysis of the deposited data

How the results depend on the processing

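With 3 arrays per group, the fit detects only differences well beyond the spread within groups. Counts of members called stayed at 0 in all 3 comparisons under every other setting, an adjusted p of 0.1 included, except without the replicate block, where 1 member, Nol3, was called at 1 mg/kg (-0.50) and 1 at 10 mg/kg (-0.42). The p-values without the block can be too small, because the authors had already adjusted for the replicates. Leaving out each array in turn gave 0 to 0 calls. The count of members at an unadjusted p of 0.05 was 4 at 1 mg/kg where the single-gene probe sets of each gene were averaged. At 10 mg/kg it was 10 without the block, and 2 each with probe sets brighter than the median only, with the intensity trend and robust option, and with the 2 groups compared alone. Leaving out each array in turn gave 2 to 8 at 1 mg/kg, 3 to 5 at 10 mg/kg and 1 to 3 between the doses. The median difference of the members ranged over -0.074 to 0.00273 at 1 mg/kg, -0.05 to -0.02 at 10 mg/kg and -0.01 to 0.03 between the doses in the same fits, and the cause of these shifts was not tested. The 15 members given by array kept the sign of each difference at an unadjusted p of 0.05 under all settings. The fit of brighter probe sets gave no value for 7 members.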

Other observations

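Among the arrays numbered 2, the values of sex-linked genes stood apart in all 3 groups. Xist read 9.002 in 1 mg/kg replicate 2, and 2.99 in 10 mg/kg replicate 2 and 2.99 in saline replicate 2, below the 4.15 to 4.62 of the 6 arrays numbered 1 and 3. The Y-linked Eif2s3y ran the other way, at 4.11 in 1 mg/kg replicate 2, 7.73 in 10 mg/kg replicate 2 and 7.71 in saline replicate 2, against 6.59 to 6.99 in the arrays numbered 1 and 3. The values had been adjusted by the authors for the replicate number before deposit, and a cause was not tested.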
